A study of Homo sapiens with 6 samples.

Results

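The genes described here are 10 listed symbols: the transcription factors that drive epithelial-mesenchymal transition (EMT), SNAI1, SNAI2, TWIST1, TWIST2, ZEB1 and ZEB2, the mesenchymal genes VIM, FN1 and SPARC, and the epithelial factor GRHL2. Of the 10 symbols, 8 were matched to a row among the 30051 genes counted, and TWIST1 and TWIST2 were not analysed here. RNA came from MDA-MB-231, 1 human cell line from a triple-negative breast carcinoma. It belongs to the claudin-low type, whose cells are mesenchymal and have weak epithelial junctions. One group received the solvent DMSO for 24 h (replicates 1, 2 and 3), and the other received 50 nM panobinostat for 24 h (replicates 1, 2 and 4). Panobinostat inhibits most histone deacetylases (HDACs), and nothing in the labels sets the groups apart other than the drug. The design text calls the conditions independently repeated. It names no separate cultures, so p-values measure the spread between these 6 libraries.

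EMT is the program by which epithelial cells loosen their junctions and take on migratory, mesenchymal traits. The Snail and ZEB factors are zinc finger repressors that bind E-boxes in epithelial genes such as CDH1, the gene of E-cadherin, and work through corepressors. Snail proteins recruit HDACs and the demethylase LSD1, and ZEB proteins recruit CtBP. GRHL2 opposes this program and in epithelial cells restrains ZEB1.

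Total counts ranged from 5389638 to 15106148 per library. Panobinostat replicate 4 stood apart: its log2 levels had a correlation across genes of 0.976 to 0.977 with panobinostat replicates 1 and 2, against 0.995 between those 2, and of 0.971 to 0.972 with the DMSO libraries. The changes of the listed genes and the list counts are therefore also given without it. All log2 fold changes are panobinostat over DMSO, as estimate ± SE. The SE was derived from the test named below, as the absolute log2 fold change over the square root of its F statistic. Levels are in counts per 1000000 (CPM) of the TMM-scaled library total, as mean ± SD with n = 3. Tests are edgeR's quasi-likelihood test with Benjamini-Hochberg adjustment over all 13341 genes tested, and a gene was called at an adjusted p under 0.05. Of the markers of the claudin-low type, the 3 high ones (VIM, ZEB1 and CD44) summed to 3492 to 3520 CPM in DMSO. The 7 low ones summed to 17.2 to 18.7 CPM in DMSO and 28.7 to 37.9 CPM in panobinostat. Among these, CDH1 had 1 count in DMSO and 0 in panobinostat, but CLDN7 was at 15.5 ± 0.504 CPM in DMSO. CD24 and CLDN4 were called higher in panobinostat, but passed the filter on low counts only through their panobinostat level.

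Promoter windows of ZEB1, ZEB2 and FN1 are shown because both ZEB genes fell while FN1 rose, and because Snail and ZEB proteins are known to bind the E-box CACCTG. Sequences are from RefSeq on GRCh38.p14 and run from 250 bases before the transcript start to 50 bases after it. Capitals mark CACCTG on either strand (CAGGTG on the printed strand), or the cyclic AMP response element TGACGTCA, which does not overlap an E-box here. RefSeq lists 7 starts for ZEB1, of which 2 have the E-box in this window.
ZEB1, upstream start, chr10:31318167-31318466, plus strand: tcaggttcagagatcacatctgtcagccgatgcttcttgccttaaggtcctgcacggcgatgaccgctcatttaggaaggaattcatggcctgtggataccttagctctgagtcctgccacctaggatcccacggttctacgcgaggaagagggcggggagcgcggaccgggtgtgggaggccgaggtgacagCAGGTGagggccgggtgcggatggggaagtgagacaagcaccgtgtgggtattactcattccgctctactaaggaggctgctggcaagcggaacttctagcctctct
ZEB1, downstream start, chr10:31318966-31319265, plus strand: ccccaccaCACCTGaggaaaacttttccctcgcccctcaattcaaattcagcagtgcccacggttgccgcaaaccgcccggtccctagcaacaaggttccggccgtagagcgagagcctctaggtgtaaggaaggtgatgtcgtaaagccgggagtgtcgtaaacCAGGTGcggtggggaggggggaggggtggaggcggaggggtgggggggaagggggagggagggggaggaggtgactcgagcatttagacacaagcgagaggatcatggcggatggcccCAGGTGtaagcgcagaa
ZEB2, chr2:144520070-144520369, minus strand: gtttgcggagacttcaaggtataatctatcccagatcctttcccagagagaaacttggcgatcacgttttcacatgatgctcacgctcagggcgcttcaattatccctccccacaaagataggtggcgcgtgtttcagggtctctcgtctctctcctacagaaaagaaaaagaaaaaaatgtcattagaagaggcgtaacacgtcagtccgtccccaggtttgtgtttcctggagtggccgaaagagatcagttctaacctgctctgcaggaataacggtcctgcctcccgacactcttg
FN1, chr2:215436019-215436318, minus strand: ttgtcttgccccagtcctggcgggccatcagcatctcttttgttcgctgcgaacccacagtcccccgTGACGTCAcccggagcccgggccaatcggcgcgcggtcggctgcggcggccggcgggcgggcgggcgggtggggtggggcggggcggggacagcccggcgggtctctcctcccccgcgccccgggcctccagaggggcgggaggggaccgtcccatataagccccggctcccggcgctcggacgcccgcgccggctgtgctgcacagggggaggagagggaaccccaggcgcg
The window at the downstream ZEB1 start has 3 E-boxes, at −242, −85 and 34 from that start, and the one at the upstream start has 1, at −57. Of 35116 promoter windows of this length, 20.6% had at least 1 E-box and 0.635% had 3 or more. ZEB2 has none in its window, and neither have VIM and SPARC. FN1 has the cyclic AMP response element at −183, which 1.85% of windows have. These shares are per window and not per gene, and ZEB1 has 7 windows where ZEB2, VIM, FN1 and SPARC have 1 each. No window was available for SNAI1 or SNAI2. A match is a description of the letters and not of binding, which was not measured.

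The Snail genes rose and the ZEB genes fell under panobinostat, and VIM and FN1 rose slightly. Of the 6 genes tested among the 8 (SNAI1 only through its panobinostat level), 4 were called higher, where 30.2% of all tested genes were, and 2 were called lower, where 28.6% were. A call in either direction was made for 58.9% of all tested genes. In each of the 6 the panobinostat libraries did not overlap the DMSO libraries, as was the case for 69.0% of all tested genes. SPARC and GRHL2 were too low to be tested. The counts of 4 higher and 2 lower were the same without panobinostat replicate 4, when 37.6% of all genes were called higher and 36.9% lower, 74.6% in all. The smallest p an exact test of 3 against 3 libraries can give is 0.1, so the test across genes was used throughout.

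**Figure D1:**
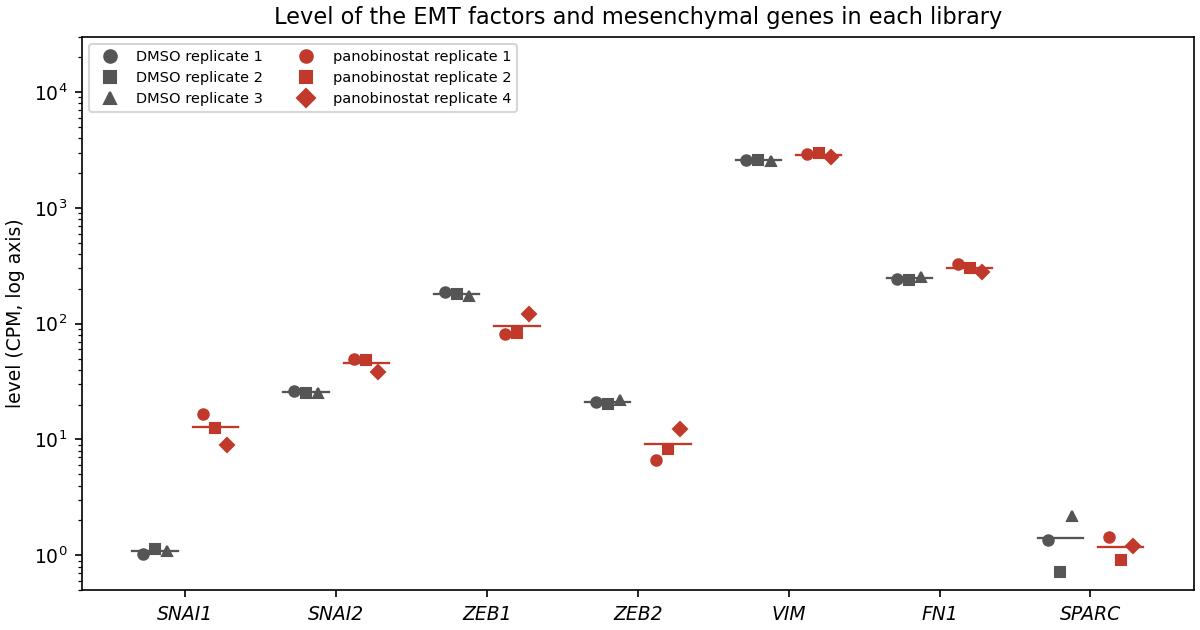
Level of 7 members in each library (CPM, log axis), with DMSO in grey, panobinostat in red and lines at the group means. SNAI1 moves from about 1 CPM to between 8.88 and 16.5 CPM, while ZEB1 and ZEB2 move down and SPARC overlaps. GRHL2, at 0 in DMSO, is left out of the log axis.

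SNAI1, which encodes Snail, the founding member of its family and a rapid inducer of EMT, lies on chromosome 20 from 49982980 to 49988886 (ENSG00000124216, protein-coding). Its levels were 1.02, 1.14 and 1.09 CPM in DMSO replicates 1, 2 and 3, and 16.5, 12.7 and 8.88 CPM in panobinostat replicates 1, 2 and 4. All panobinostat libraries lay far above all DMSO libraries, and replicate 4 was the lowest of them. SNAI1 rose 12.0-fold (log2 fold change 3.58 ± 0.31, edgeR adjusted p = 0.000573), and the log2 fold change was 3.80 without panobinostat replicate 4. Among tested genes, 1.07% had a larger log2 fold change. The filter on low counts asked for at least 1.46 CPM of the plain library total in 3 libraries, which SNAI1 reached in 0 DMSO libraries and in all 3 panobinostat libraries. It was therefore tested only through its panobinostat level, as were 820 of all tested genes, and its test and rank are read with that limit. The DMSO level rests on 27 counts in all, against 379 in panobinostat. These allow 0.694 to 1.53 and 12.6 to 15.5 CPM of the plain library total (95% exact Poisson intervals, which cover counting error only).

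SNAI2 encodes Slug, the Snail relative typical of basal breast and neural crest cells, and lies on chromosome 8 from 48917598 to 48921429 (ENSG00000019549). It was measured at 26.4, 25.0 and 25.3 CPM in DMSO and at 50.0, 48.7 and 38.2 CPM in panobinostat. Replicates 1 and 2 nearly coincided and replicate 4 lay between them and DMSO. SNAI2 rose 1.79-fold (0.84 ± 0.12, edgeR adjusted p = 0.00155), from 25.6 ± 0.695 to 45.7 ± 6.47 CPM, and by 0.94 on the log2 scale without replicate 4. The smaller rise of SNAI2 went with a shift within the family: per kilobase of exon, SNAI1 made up 7.20% to 8.38% of SNAI1 plus SNAI2 in DMSO and 31.9% to 39.9% in panobinostat.

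ZEB1 encodes the ZEB factor that maintains the mesenchymal state in many carcinoma lines, and lies on chromosome 10 from 31318417 to 31529804 (ENSG00000148516). Its levels were 187, 180 and 173 CPM in DMSO, and 81.4, 83.6 and 122 CPM in panobinostat. Every panobinostat library was below every DMSO library, with replicate 4 nearest to DMSO. ZEB1 fell by 46.9% (−0.91 ± 0.15, edgeR adjusted p = 0.00233), and without replicate 4 the log2 fold change was −1.14. A smaller log2 fold change was found in 6.31% of tested genes.

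ZEB2, the second ZEB factor, first described as a partner of SMAD proteins, lies on chromosome 2 from 144384081 to 144520119 (ENSG00000169554). It was at 21.2, 20.1 and 22.0 CPM in DMSO and 6.70, 8.27 and 12.3 CPM in panobinostat. It fell by 58.0% (−1.25 ± 0.21, edgeR adjusted p = 0.00267), and 2.18% of tested genes had a smaller log2 fold change. Without replicate 4 the estimate was −1.57. ZEB1 remained the main ZEB transcript: ZEB2 made up 3.71% to 4.21% of ZEB1 plus ZEB2 per kilobase of exon in DMSO and 2.76% to 3.37% in panobinostat. Such shares depend on the length used for each gene. With the longest coding transcript, ZEB2 was at 2.20 and ZEB1 at 28.7 CPM per kilobase in DMSO.

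**Figure D2:**
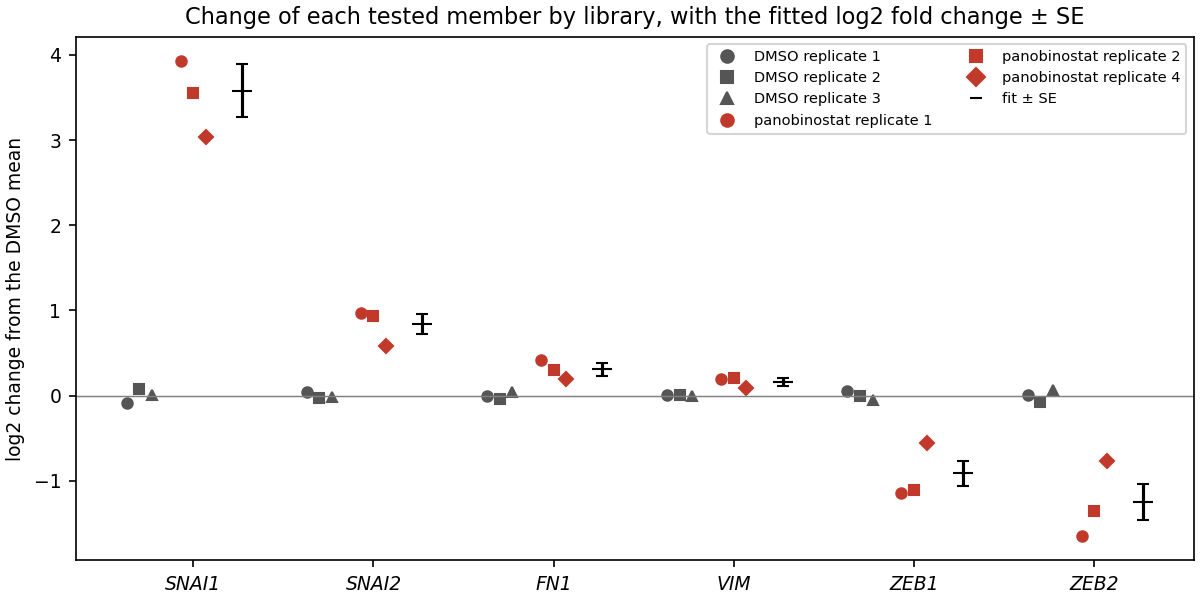
Change of the 6 tested members in each library, as log2 of the level over the DMSO mean, with the fitted log2 fold change ± SE in black. SNAI1 and SNAI2 lie above 0 and ZEB1 and ZEB2 below it in all panobinostat libraries, and replicate 4 (diamonds) is the nearest to 0 for each gene.

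The ratio of a Snail to a ZEB transcript within a library does not depend on how libraries are scaled. Per kilobase of exon, the SNAI2 to ZEB1 ratio was 0.360, 0.355 and 0.372 in DMSO and 1.57, 1.49 and 0.798 in panobinostat. SNAI2 was thus the lower of the pair in all DMSO libraries and the higher in panobinostat replicates 1 and 2 but not 4. The SNAI1 to ZEB1 ratio went from 0.0279, 0.0325 and 0.0322 to 1.04, 0.778 and 0.373. The value above 1, in panobinostat replicate 1, depends on the length used. With the longest coding transcript, SNAI1 was at 9.79 and ZEB1 at 13.0 CPM per kilobase in that library. All 4 ratios of a Snail to a ZEB gene were higher in each panobinostat library than in each DMSO library. Their mean log2 differences were 1.76 for SNAI2 to ZEB1, 2.08 for SNAI2 to ZEB2, 4.44 for SNAI1 to ZEB1 and 4.77 for SNAI1 to ZEB2. Without replicate 4 they were 2.07, 2.45, 4.87 and 5.25. These are descriptions that follow from the separate changes of the genes and were not tested on their own.

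**Figure D3:**
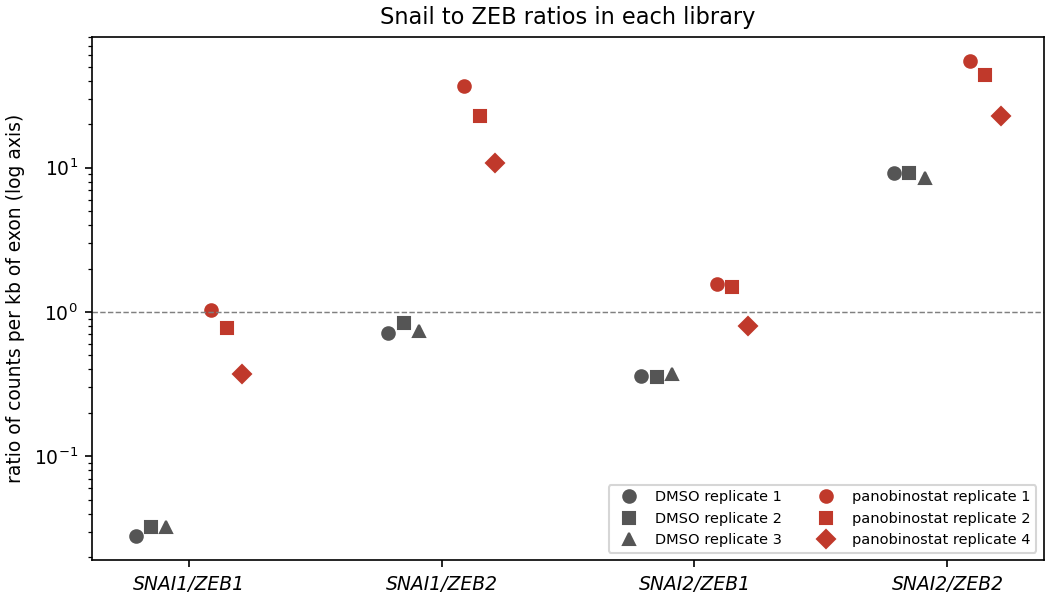
Ratio of each Snail gene to each ZEB gene in each library, in counts per kilobase of exon on a log axis, with a dashed line at 1. The DMSO libraries (grey) cluster tightly, and all panobinostat libraries (red) lie above them, from 0.373 to 1.04 for SNAI1 to ZEB1 and from 0.798 to 1.57 for SNAI2 to ZEB1.

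Panobinostat replicate 4 showed 81.2% of the mean log2 change of replicates 1 and 2 for SNAI1, 61.1% for SNAI2, 54.8% for FN1, 51.5% for ZEB2, 49.6% for ZEB1 and 45.0% for VIM. Over all called genes above 1 CPM in DMSO, the median share was 59.2% for those called higher and 44.9% for those called lower. SNAI1 lay above the upper quartile of 68.5% of the genes called higher. 

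VIM encodes vimentin, the intermediate filament protein of mesenchymal cells (chromosome 10, 17228241 to 17237593, ENSG00000026025). Only 12 tested genes had a higher level in DMSO. It was at 2573, 2572 and 2557 CPM in DMSO and 2926, 2956 and 2729 CPM in panobinostat, which do not overlap. The rise of 11.8% (0.16 ± 0.05, edgeR adjusted p = 0.0213) was small, and 39.8% of tested genes had a larger log2 fold change. The call was lost in 7 of 12 alternatives: with no filter, in DESeq2's Wald test, and without each library in turn other than panobinostat replicate 4 (adjusted p from 8.18e-22 to 0.297 over all 12). The estimate stayed between 0.11 and 0.19, and was 0.18 without panobinostat replicate 4.

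FN1 encodes fibronectin, a matrix glycoprotein made by mesenchymal cells (chromosome 2, 215360865 to 215436068, ENSG00000115414). It was at 245, 238 and 253 CPM in DMSO and 327, 302 and 281 CPM in panobinostat. All panobinostat libraries lay above DMSO, and FN1 rose by 23.6% (0.31 ± 0.07, edgeR adjusted p = 0.00748). The log2 fold change was 0.36 without panobinostat replicate 4.

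SPARC, which encodes the matrix protein osteonectin, was low, with 1.36, 0.712 and 2.17 CPM in DMSO and 1.45, 0.919 and 1.20 CPM in panobinostat. The groups overlapped, with 35 counts in each. Panobinostat over DMSO gave 0.945 times the rate (95% counting interval 0.574 to 1.56), so a change within this interval was not detectable at this depth. Fitted with no filter, SPARC was not called (−0.21 ± 0.43, edgeR adjusted p = 0.750). Without panobinostat replicate 4 SPARC passed the filter and was not called either (−0.11 ± 0.40, edgeR adjusted p = 0.820).

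GRHL2 encodes a grainyhead factor of epithelial cells and lies on chromosome 8 from 101492439 to 101681200 (ENSG00000083307). It had 0 counts in all DMSO libraries, and 0, 1 and 1 in panobinostat replicates 1, 2 and 4. The 0 of 25624656 counts in DMSO allows up to 0.117 CPM (3 counts, plain library total), and 2 counts in panobinostat are below that floor, so no fold is given. This factor was thus near absent in both groups.

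By level per kilobase of exon, the order in DMSO was VIM (498 ± 1.77), ZEB1 (20.8 ± 0.787), FN1 (14.2 ± 0.438), SNAI2 (7.54 ± 0.205), ZEB2 (0.842 ± 0.0393), SNAI1 (0.641 ± 0.0362), SPARC (0.292 ± 0.152) and GRHL2, all in CPM per kilobase. The ranges of neighbours in this order did not overlap. SNAI1 rests on 27 DMSO counts, however, so its place just below ZEB2 is uncertain. Its counting interval (0.694 to 1.53 CPM of the plain library total) is wider than its range across libraries. In panobinostat the order was VIM (556 ± 23.8), FN1 (17.5 ± 1.32), SNAI2 (13.5 ± 1.91), ZEB1 (11.1 ± 2.65), SNAI1 (7.53 ± 2.26), ZEB2 (0.363 ± 0.116), SPARC (0.246 ± 0.0546) and GRHL2. There SNAI2, at 11.3 to 14.8, and ZEB1, at 9.42 to 14.1, overlapped. So did ZEB1 and SNAI1, at 5.27 to 9.79, as well as ZEB2, at 0.268 to 0.492, and SPARC, at 0.190 to 0.299. SNAI1 passed ZEB2 in level in all panobinostat libraries. Both orders were the same with the length of the longest coding transcript in place of all exons of the gene. The overlaps differed with that length: in DMSO ZEB1, at 27.6 to 29.8, and FN1, at 26.8 to 28.45, then overlapped.

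Among the genes compared by likeness of pattern, those near SNAI2 over the 6 libraries included SPIRE2 and LZTFL1. Their root mean square distances in log2 level from the DMSO mean were 0.0186 and 0.0224. The nearest to ZEB1 were CDCA5, the gene of the cohesin regulator sororin (0.0215), WDR6 (0.0231) and ARMCX1 (0.0271). The nearest to VIM were ENOPH1 (0.0123), CLCN7 (0.0130) and FAM168A (0.0171), none of which was called. The 9781 genes compared averaged at least 10 CPM over the libraries. With 6 libraries in 2 groups and replicate 4 between them, these patterns have little room to differ.

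ZEB1-AS1, the antisense neighbour that overlaps the first 2031 bases of ZEB1, had 10.8, 11.1 and 12.3 CPM in DMSO and 15.8, 14.5 and 12.8 CPM in panobinostat. The groups did not overlap, with panobinostat above, and the gene was not called (0.35 ± 0.13, edgeR adjusted p = 0.0509). It was called higher in 4 of 12 alternatives, among them the fit without panobinostat replicate 4 (adjusted p = 0.00183, and 0.000786 to 0.233 over all 12). VIM-AS1, which overlaps VIM by 1745 bases, was not called (0.13 ± 0.17). The kit keeps strand, but no source used here says whether counting did, so reads in the shared parts may be assigned to either gene.

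Other EMT-linked factors moved in both directions. Of 20 listed, 16 were tested, 5 rose, 8 fell and 3 were not called, with a median log2 fold change of −0.34 (all tested genes 0.00). Over all tested genes 30.2% were called higher and 28.6% lower, so the share that rose was near that background. Without panobinostat replicate 4, 7 rose, 8 fell, 2 were not called and the median was −0.51, where 37.6% of all genes were called higher and 36.9% lower. SNAI3, the third Snail gene, rose from 1.52 ± 0.428 to 6.98 ± 0.982 CPM (2.23 ± 0.25), and passed the filter only through panobinostat. All of SNAI3 lies within SNAI3-AS1, which also passed the filter only through panobinostat and rose with overlapping groups (1.29 ± 0.42, edgeR adjusted p = 0.0287). SNAI3-AS1 lost that call without any 1 of DMSO replicates 1 and 2 and panobinostat replicates 1 and 2 (0.127 at most over its alternatives). SNAI3 is therefore uncertain. ID1 (0.77 ± 0.12) and ID3 (0.66 ± 0.19), inhibitors of the basic helix-loop-helix factors to which TWIST belongs, and SOX4 (0.70 ± 0.10) rose. ID3 lost its call without DMSO replicate 1 or 2 or panobinostat replicate 1, with no filter and in DESeq2 (0.000866 to 0.0996 over its alternatives). HMGA2, a chromatin protein known to induce SNAI1 and TWIST1, fell from 154 ± 3.59 to 41.1 ± 38.5 CPM (−1.93 ± 0.52, and −2.99 without panobinostat replicate 4). PRRX1, a homeobox EMT factor (−1.80 ± 0.47), LEF1, a nuclear partner of beta-catenin (−1.27 ± 0.32), and RUNX2 (−1.18 ± 0.24) also fell. HMGA2 was not called with no filter (adjusted p = 0.156, the largest of its alternatives), nor PRRX1 without panobinostat replicate 1 (−1.15, 0.0581, the largest of its alternatives). Without panobinostat replicate 4 PRRX1 was at −2.53, and it passed the filter only through DMSO.

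Other mesenchymal genes moved in both directions. Of 36 listed, 26 were tested, 12 rose, 5 fell and 9 were not called, with a median of 0.21, or 15, 7 and 4 with a median of 0.27 without panobinostat replicate 4. The shares over all genes were 30.2% higher and 28.6% lower, and 37.6% and 36.9% without that library. The collagen gene COL1A1 rose from 17.4 ± 1.02 to 76.0 ± 19.1 CPM (2.13 ± 0.19). THBS1, the matrix protein thrombospondin 1, rose from 364 ± 4.18 to 1562 ± 412 CPM (2.10 ± 0.18), and the collagen gene COL5A1 (1.30 ± 0.14) rose as well. MMP14, a membrane metalloprotease, fell from 1223 ± 24.1 to 510 ± 238 CPM (−1.26 ± 0.27). PLAUR, the urokinase receptor (−1.17 ± 0.24), TPM2, a tropomyosin (−1.05 ± 0.22), and NT5E, the surface marker CD73 (−0.44 ± 0.09), fell. MMP14 and PLAUR were not called with no filter (adjusted p = 0.0845 and 0.0696, the largest of their alternatives). CDH2, the gene of N-cadherin, had 8 counts in DMSO and 20 in panobinostat and was not tested.

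Fibroblast, endothelial and leukocyte markers are given here as genes of the line, because all libraries came from 1 cell line. The labels name no other cell type. In bulk RNA, more cells with a transcript and more of it per cell cannot be told apart. The 5 fibroblast markers summed to 17.1 to 19.2 CPM in DMSO and 55.5 to 90.5 CPM in panobinostat, nearly all of it COL1A1. DCN had 0 counts in DMSO and 1 in panobinostat, LUM 1 and 0, and COL3A1 1 and 3. The 4 endothelial markers summed to 16.1 to 20.5 and 37.3 to 56.9 CPM. KDR rose from 11.4 ± 2.33 to 44.4 ± 12.8 CPM (1.96 ± 0.24, edgeR adjusted p = 0.000973), while PECAM1 was at 6.88 ± 1.14 and 4.64 ± 1.28 CPM, was not called, and was called lower without panobinostat replicate 4. The 3 leukocyte markers with a row summed to 0.427 to 0.678 and 1.96 to 3.29 CPM. Nearly all of this was CD14, which passed the filter only through panobinostat, so its test is read with that limit. CD14 rose from 0.523 ± 0.135 to 2.46 ± 0.670 CPM (2.21 ± 0.36, edgeR adjusted p = 0.00226), while PTPRC had 0 counts in DMSO and 2 in panobinostat. The relation of these marker genes to the rise of FN1, VIM and the other mesenchymal genes was not tested.

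**Figure D4:**
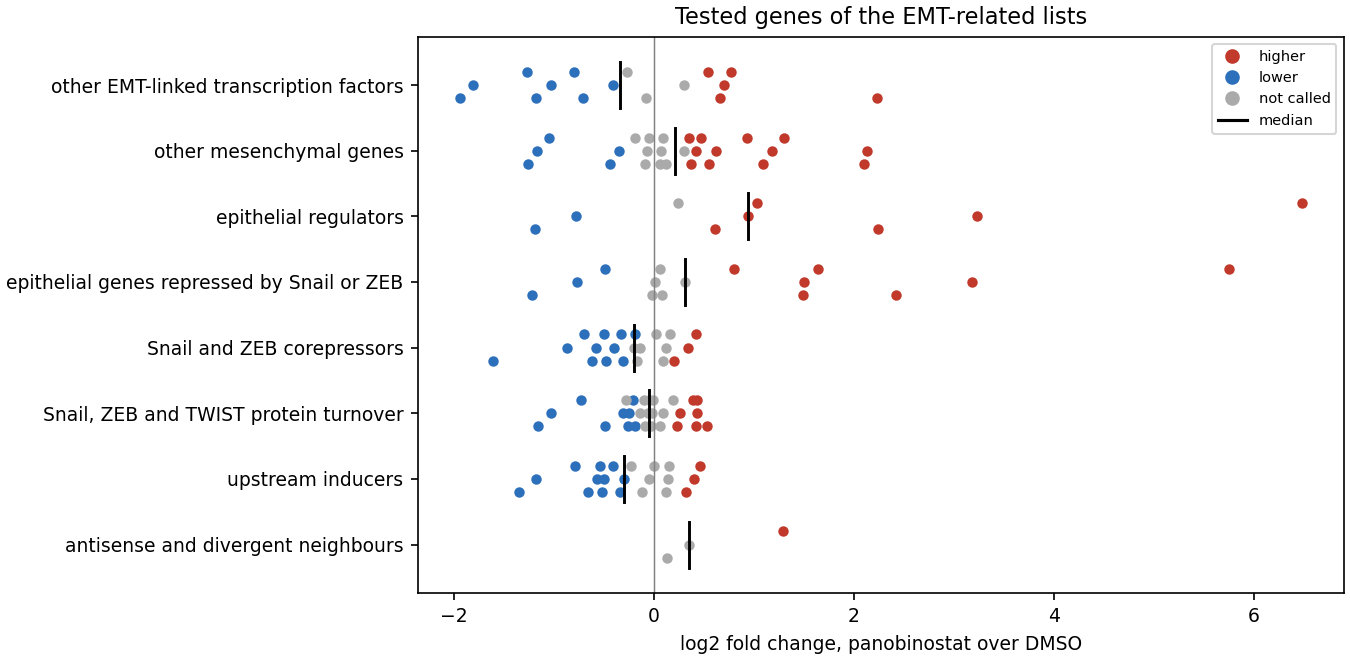
Fitted log2 fold changes of the tested genes in 8 lists, each dot a gene, red if called higher, blue if called lower and grey if not called, with a black line at the median of each list. Epithelial regulators have a median of 0.94 and upstream inducers one of −0.30.

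Among epithelial regulators other than GRHL2, GRHL1, ELF3 and EHF were higher in panobinostat. Of 18 listed, 9 were tested, 6 rose, 2 fell and 1 was not called, with a median of 0.94. Without panobinostat replicate 4, 7 rose, 3 fell and the median was 0.86. All tested genes gave 30.2% higher and 28.6% lower, and 37.6% and 36.9% without that library. Of the 6 that rose, 2 (GRHL1 among them) passed the filter only through panobinostat, so the counts and the median lean upward. GRHL1, the relative of GRHL2, rose from 1.80 ± 0.681 to 16.7 ± 7.18 CPM (3.23 ± 0.42, edgeR adjusted p = 0.00114). Its levels were 1.61, 2.56 and 1.24 CPM in DMSO and 21.0, 20.8 and 8.43 CPM in panobinostat, with no overlap. The third relative, GRHL3, had 1 count in DMSO against 12, or 11.3 times the rate (95% counting interval 1.68 to 485). The ETS factors of epithelia ELF3 (2.24 ± 0.22) and EHF (1.03 ± 0.17) rose. GATA3, a luminal breast factor (−1.19 ± 0.39), and TFAP2A (−0.78 ± 0.20) fell, and GATA3 lost its call without any 1 library other than panobinostat replicate 4 (0.114 at most over its alternatives), without which its estimate was −1.83. OVOL2 had 0 and 1 counts, and ESRP1, an epithelial splicing factor, had 13 and 16.

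Epithelial genes that Snail or ZEB factors are known to repress moved in both directions. Of 24 listed, 15 were tested, 7 rose, 3 fell and 5 were not called, with a median of 0.31. Without panobinostat replicate 4 the counts were the same and the median was 0.08. The background was 30.2% higher and 28.6% lower, and 37.6% and 36.9% without that library. Of the 7 that rose, 3 (TJP3 and CLDN4 among them) passed the filter only through panobinostat, so here too the counts and the median lean upward. CDH1 stayed near absent, with 1 count over the DMSO libraries and 0 over the panobinostat libraries, and CLDN3 had 1 and 7. TJP3, a tight junction scaffold, rose from 0.288 ± 0.134 to 17.6 ± 5.96 CPM (5.75 ± 0.44), on 8 and 499 counts. LLGL2, a cell polarity gene, rose from 1.79 ± 0.313 to 15.8 ± 5.16 CPM (3.18 ± 0.32), and KRT19 from 58.6 ± 2.61 to 315 ± 97.0 CPM (2.42 ± 0.22). CLDN4, a claudin, rose at low level (1.64 ± 0.29). The desmosomal PKP3 (−1.22 ± 0.23), EPCAM (−0.77 ± 0.17) and the keratin gene KRT18 (−0.49 ± 0.09) fell. For CDH1, 0 of 27118192 panobinostat counts allows up to 0.111 CPM of the plain library total (3 counts).

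Among corepressors of Snail and ZEB, both CtBP genes fell. Of 22 listed, 21 were tested, 3 rose, 11 fell and 7 were not called, with a median of −0.20, or 5, 14 and 2 with a median of −0.27 without panobinostat replicate 4. By comparison 28.6% of all tested genes were called lower and 30.2% higher, and 36.9% and 37.6% without that library. CTBP1 (−0.70 ± 0.14) and CTBP2 (−0.86 ± 0.18), the partners of ZEB1, fell from 112 ± 3.76 to 69.1 ± 14.7 CPM and from 102 ± 1.42 to 56.0 ± 17.1 CPM. SUV39H1, a histone H3 lysine methyltransferase that Snail recruits, had the lowest log2 fold change in this list (−1.61 ± 0.35, and −2.28 without panobinostat replicate 4), and AJUBA, a LIM protein that bridges Snail to other enzymes, fell as well (−0.62 ± 0.11). SUV39H1 was not called with no filter (adjusted p = 0.0857, the largest of its alternatives). LOXL2 (0.42 ± 0.09), a lysyl oxidase reported to stabilise Snail, KDM1A, the gene of LSD1 (0.34 ± 0.07), and HDAC1 (0.21 ± 0.07) rose slightly. HDAC1 lost its call in 7 of 12 alternatives, those in which VIM did too (1.64e-08 to 0.270).

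Genes that control the turnover of Snail, ZEB and TWIST proteins moved in both directions. Of 31 listed, 28 were tested, 7 rose, 9 fell and 12 were not called, with a median of −0.05, or 8, 11 and 9 with a median of −0.09 without panobinostat replicate 4. Both shares were near those over all tested genes, 30.2% higher and 28.6% lower (37.6% and 36.9% without that library). BTRC, the F-box protein that marks phosphorylated Snail for degradation (0.43 ± 0.12), the ligase STUB1 (0.43 ± 0.11), the kinase PAK1 (0.44 ± 0.11) and the deubiquitinase USP27X (0.53 ± 0.18) rose. SIAH1, a ubiquitin ligase of ZEB1, fell from 10.1 ± 1.08 to 4.50 ± 1.54 CPM (−1.15 ± 0.23), and USP1 (−1.02 ± 0.22), MDM2 (−0.73 ± 0.15) and ATM, a kinase that stabilises ZEB1 (−0.48 ± 0.12), fell too. GSK3B, the kinase that phosphorylates Snail, was not called (−0.02 ± 0.08). USP27X, BTRC and STUB1 lost their calls in 6, 4 and 3 of 12 alternatives, with largest adjusted p of 0.131, 0.0697 and 0.0669, and USP1 lost its call with no filter (0.0810). Each loss of BTRC and STUB1 came from leaving out 1 library, panobinostat replicate 1 among them.

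Among upstream inducers of EMT, genes of the TGF-beta pathway were called in both directions. Of 22 listed, 21 were tested, 3 rose, 11 fell and 7 were not called, with a median of −0.30, or 6, 11 and 4 with a median of −0.42 without panobinostat replicate 4. Of all tested genes, 30.2% were called higher and 28.6% lower, and 37.6% and 36.9% without that library. STAT3 (0.46 ± 0.08), NOTCH1 (0.41 ± 0.08) and TGFB1, the gene of the EMT-inducing cytokine TGF-beta 1 (0.32 ± 0.07), rose. NFKB1, an NF-kappaB subunit (−1.35 ± 0.30), YAP1, the Hippo pathway coactivator (−1.18 ± 0.24), EGFR (−0.79 ± 0.14) and BMP4 (−0.66 ± 0.12) fell. The TGF-beta receptor gene TGFBR2 (−0.57 ± 0.10) and the signal transducers SMAD2 (−0.33 ± 0.09), SMAD3 (−0.41 ± 0.10) and SMAD4 (−0.53 ± 0.11) fell, while TGFBR1 was not called (0.12 ± 0.06). NFKB1 and YAP1 were not called with no filter (adjusted p = 0.0966 and 0.0732, the largest of their alternatives).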

How the data were processed

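RNA from 3 DMSO and 3 panobinostat libraries was measured as raw counts per gene, deposited by the authors in 1 table that its name attributes to featureCounts. The genome build was GRCh38.p14, per the submitters' processing notes. The sources used here give no aligner or strand setting. The authors' deposited comparison in the same table holds a mean signal, log2 fold changes, a score and p-values. It is keyed by another identifier column, which equals the first in only 61 lines, so identifiers were matched. Symbols came from a reference table by Ensembl identifier, or from the deposited table where the reference had none. Together they named 29742 of 30051 genes. The 10 listed symbols were matched by the deposited table's own symbols. Coordinates came from RefSeq on GRCh38.p14, and lengths from GENCODE release 29 (all exons of a gene merged).

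Counts were tested with edgeR 4.0.16 in R 4.3.3 (TMM, filterByExpr, robust quasi-likelihood, treatment as the only term). The fit was also run on simulated data, in which few genes changed and no library stood apart. That run therefore does not cover the conditions of these data. The filter kept 13341 genes. Alternatives were DESeq2 1.42.0, its size factors in edgeR, library size only, no filter, limma 3.58.1 with library quality weights, the replicate number as a block, and leaving out each library. The genes and lists were chosen with earlier results of these data known. From each list up to 4 called genes in each direction at 1 CPM or more were named. CDH1, CDH2, CLDN3, GRHL3, OVOL2, ESRP1, GSK3B, TGFBR1, TGFBR2, SMAD2, SMAD3, SMAD4 and the cell markers CLDN7, KDR, PECAM1 and CD14 were named after their values were seen. For SNAI2, ZEB1 and VIM the 3 nearest genes in log2(CPM + 0.5) were named. Some genes that these rules select are not reported here.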

Additional observations from a re-analysis of the deposited data

How the results depend on the processing

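SNAI1, SNAI2, ZEB1, ZEB2 and FN1 kept their direction and call in all 12 alternatives. Their log2 fold changes ranged from 3.30 to 3.81, 0.75 to 0.94, −1.17 to −0.81, −1.57 to −1.02 and 0.24 to 0.39. VIM kept its direction in all 12 and lost its call in 7, so 3 of the 8 genes were called higher in those and 4 in the others, and 2 were called lower in all. The cause of the lost calls was not tested. Over all genes, leaving out 1 library gave 3106 to 5171 higher and 2624 to 5078 lower, against 4032 and 3821 in all libraries, and the extremes come from leaving out panobinostat replicates 1 and 4.

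The groups share only replicate numbers 1 and 2. A replicate block gave 5031 genes called higher and 4950 lower, 4 and 2 of them among the 8 genes, and the log2 fold changes were all of the same sign. In that fit a library whose number is not shared is alone in its block and adds nothing to the log2 fold change. The estimates thus rest on replicates 1 and 2 of each group and leave out panobinostat replicate 4. This alternative is therefore not independent of the fit without that library. Deviations from the group means had correlations of 0.0566 for number 1 and 0.00774 for number 2, against −0.0670 to 0.0349 between libraries of unlike number. With only these numbers shared, and with replicate 4 in the panobinostat mean, the correlations cannot decide whether the numbers pair the libraries. Depth limits SPARC and GRHL2, and the DMSO level of SNAI1.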

Other observations

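The authors' deposited table gave log2 fold changes of 2.07 for SNAI1, 0.70 for SNAI2, −0.79 for ZEB1, −1.10 for ZEB2, 0.13 for VIM and 0.25 for FN1, with no direction of the comparison stated. For SNAI1 the SE in the authors' deposited table was 0.68 and the adjusted p was 0.00796. The sums per gene in that table total 76184320, against 52742848 over the 6 libraries used here, so it may cover libraries not analysed here.

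Further low genes of the program had counts that differed in both directions. CD24, a surface protein whose low level marks claudin-low cells, passed the filter only through panobinostat. It had 19 counts over the DMSO libraries against 384, or 19.1 times the rate (95% counting interval 12.1 to 32.1). ID2, a further Id gene that did not pass the filter with all libraries, had 8 against 74, or 8.74 times the rate (4.21 to 21.0). ESRP2, an epithelial splicing factor that also did not pass, had 38 against 14, or 0.348 times the rate (0.174 to 0.657). Without panobinostat replicate 4 both were tested. There ID2 was called higher (log2 fold change 3.30, edgeR adjusted p = 1.97e-09) and ESRP2 lower (−1.48, edgeR adjusted p = 0.00396). These 3 genes were chosen after their values were seen, and the intervals cover counting error only.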
